A study of Mus musculus with 12 samples.

Results

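The 10 genes of the secretory granule and of peptide processing were followed in sensory ganglia after nerve injury: the granin family genes Chga, Chgb, Scg2, Scg3, Scg5 and Vgf, and the enzyme genes Pcsk1, Pcsk2, Cpe and Pam. They were chosen by name, with earlier results of these data known, and 9 of the 10 were among the 13260 genes with a 3′ end site used here. Cpe was not analysed here. Mice carried Adv-Cre, a Cre recombinase driven by the promoter of advillin, a gene of sensory neurons, together with Ribotag, an allele that puts an HA tag on the ribosomal protein Rpl22 in cells with Cre. In every animal 1 sciatic nerve was crushed, and the L4-L6 dorsal root ganglia (DRG) of the injured and the uninjured (naive) side were taken 3 days later. Each library came from the pooled ganglia of 4 mice. The 4 groups of 3 libraries were injured and naive RNA precipitated with the tagged ribosomes (IP), and injured and naive RNA of the whole ganglion before precipitation (input). All groups carried both alleles, so no group lacked the tag or the Cre, and the naive side belonged to animals that had an injury elsewhere. The age of the mice was not given in the sources used here.

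Neurons keep neuropeptides in dense core granules, which bud from the trans-Golgi network and release their content when calcium rises. Granins are acidic proteins that aggregate with the cargo and help the granule to form, and several of them are also cut into peptides. Prohormone convertases cut the precursors at pairs of basic residues, carboxypeptidase E (Cpe) trims the exposed basic residues, and Pam amidates the end of many peptides. Sensory neurons use this route for peptides such as calcitonin gene-related peptide and substance P.

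Each library held between 10045178 and 18687123 counts of RNA 3′ ends. Values are counts per 1000000 (CPM) of the gene sums. Because each RNA is read at its 3′ end, counts were not divided by length, and how well single sites were captured was not measured. The 7 sensory neuron markers fixed for the check were all present and summed to 19760 to 22250 CPM in IP injured, 17990 to 22630 in IP naive, 15050 to 18140 in input injured and 14160 to 15910 in input naive libraries. Macrophage markers, 5 of 7 with counts, summed to 10.95 to 50.08, 6.114 to 10.03, 135.9 to 212.3 and 64.23 to 118.5 CPM in the same order of groups, with Cd68 and Aif1 not analysed here. After injury C1qc was called higher in IP (11.57 ± 8.671 CPM in injured, 2.152 ± 0.524 CPM in naive libraries, edgeR adjusted p = 0.0171). All 5 had positive log2 values there. Satellite glia markers, 4 of 5 with counts (Kcnj10 not analysed here), summed to 909.6 to 1223, 578.7 to 794.3, 2585 to 2984 and 2417 to 2680 CPM. In IP, Glul, the glutamine synthetase gene, was the member of that list called higher after injury (870.5 ± 63.34 CPM in injured, 461.3 ± 16.98 CPM in naive libraries, adjusted p = 5.15e-05), while Apoe, Fabp7 and Gja1 overlapped between the groups with log2 values of -0.08, -0.11 and -0.42. The part of these cells in the results was not tested. Of the 7 neuron markers, 6 had positive log2 values of IP over input in naive ganglia, 2 of them called higher. Avil, whose promoter drove the Cre, was negative there (-0.48, not called, edgeR adjusted p = 0.0973). It had 105.5 ± 2.032 CPM in IP naive and 147.2 ± 17.57 CPM in input naive libraries. In injured ganglia all 7 were positive, 3 of them called higher. After injury, Tubb3 was called higher and Nefl lower in input, and none was called in IP. In these bulk samples a change in the number of cells of a type and a change in RNA per cell cannot be told apart.

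The promoters of the group are shown because granin genes are known to respond to CREB, the factor that binds the cAMP response element. The 150 bases before the RefSeq start (GRCm38.p6) of 4 genes are given, with the full element TGACGTCA, or its core TGACG or CGTCA where that stands alone, in capitals.
Scg2, chr1:79440027-79440176, minus strand: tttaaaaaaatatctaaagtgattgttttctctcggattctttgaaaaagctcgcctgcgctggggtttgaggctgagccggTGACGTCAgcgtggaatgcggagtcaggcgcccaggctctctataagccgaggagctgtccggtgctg
Chgb, chr2:132781492-132781641, plus strand: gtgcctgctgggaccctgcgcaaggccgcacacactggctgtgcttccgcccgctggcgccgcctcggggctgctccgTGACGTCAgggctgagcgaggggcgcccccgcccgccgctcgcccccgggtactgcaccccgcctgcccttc
Pcsk1, chr13:75089707-75089856, plus strand: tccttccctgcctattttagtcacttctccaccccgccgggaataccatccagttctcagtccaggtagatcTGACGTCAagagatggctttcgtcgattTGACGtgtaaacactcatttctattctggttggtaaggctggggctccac
Chga, chr12:102554791-102554940, plus strand: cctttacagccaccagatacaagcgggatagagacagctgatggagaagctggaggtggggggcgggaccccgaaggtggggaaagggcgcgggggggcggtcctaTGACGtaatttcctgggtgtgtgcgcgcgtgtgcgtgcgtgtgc
Within 250 bases before the start, searched on both strands, the full element was found in 3 of the 8 members with an entry: its first base lay 68 bases before the start in Scg2, 72 in Chgb and 78 in Pcsk1. It is its own reverse complement, and it contains both cores. Of all 32851 windows of that length, 1.55% held it. A core alone was found in 4 further members, Chga, Scg3, Scg5 and Pcsk2, and a core, alone or inside the full one, in 17.8% of all windows. Pam held neither. The AP-1 motif, TGACTCA or its reverse complement TGAGTCA, was in 0 of these 8 members and in 4.46% of all windows. The 2 members without an entry were Vgf and Cpe. They were searched for none of these motifs, so their presence or absence there is not known. The Pcsk1 start used lies inside the annotated gene, which begins at 75089420. Those used for Scg3 and Pam also lie inside their genes. A match is a description of letters and not a binding site.

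The first comparison was between injured and naive ganglia, in the RNA on ribosomes of sensory neurons and in the whole ganglion. Vgf rose in both fractions, Chga fell in input, and the other 7 members passed the test in neither. Of the 9 members, 1 was called higher and 0 lower in IP, where 1.36% and 0.167% of the 11387 genes tested were called in those directions. In input 1 was called higher and 1 lower, against 0.896% and 0.281% of all genes. The median log2 fold change of the 9 members was -0.14 in IP and 0.01 in input, beside 0.02 and 0.0033 over all genes.

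Vgf, a granin family gene first found through its induction by nerve growth factor and cut into several bioactive peptides, rose. It had 752.45, 833.32 and 821.42 CPM in IP injured libraries, against 213.85, 247.02 and 205.47 CPM in IP naive libraries. In input it had 632.52, 635.35 and 983.47 CPM in injured and 190.27, 222.99 and 218.13 CPM in naive libraries. The groups did not overlap in either fraction, and input injured 3 was the highest of all 12 libraries. The fold was 3.61 in IP (log2 1.85 ± 0.16 SE, adjusted p = 5.18e-07, edgeR quasi-likelihood test, 3 against 3 libraries) and 3.57 in input (log2 1.83 ± 0.16, adjusted p = 8.23e-07). The injury effect in IP minus that in input was 0.02 (95% interval -0.45 to 0.48, adjusted p = 0.9999). With any 1 library left out the log2 value stayed between 1.78 and 1.90 in IP and between 1.59 and 1.94 in input. All Vgf counts lay at a single site, chromosome 5, 137033303 to 137033328 as deposited, 23 bp inside the annotated 3′ end. The strand of Vgf was itself set from the counts at its gene ends, so the place of the site at the 3′ end follows from that rule. Among the 11387 genes, Vgf ranked 193 by mean CPM in IP injured libraries and 978 in IP naive libraries.

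**Figure D1:**
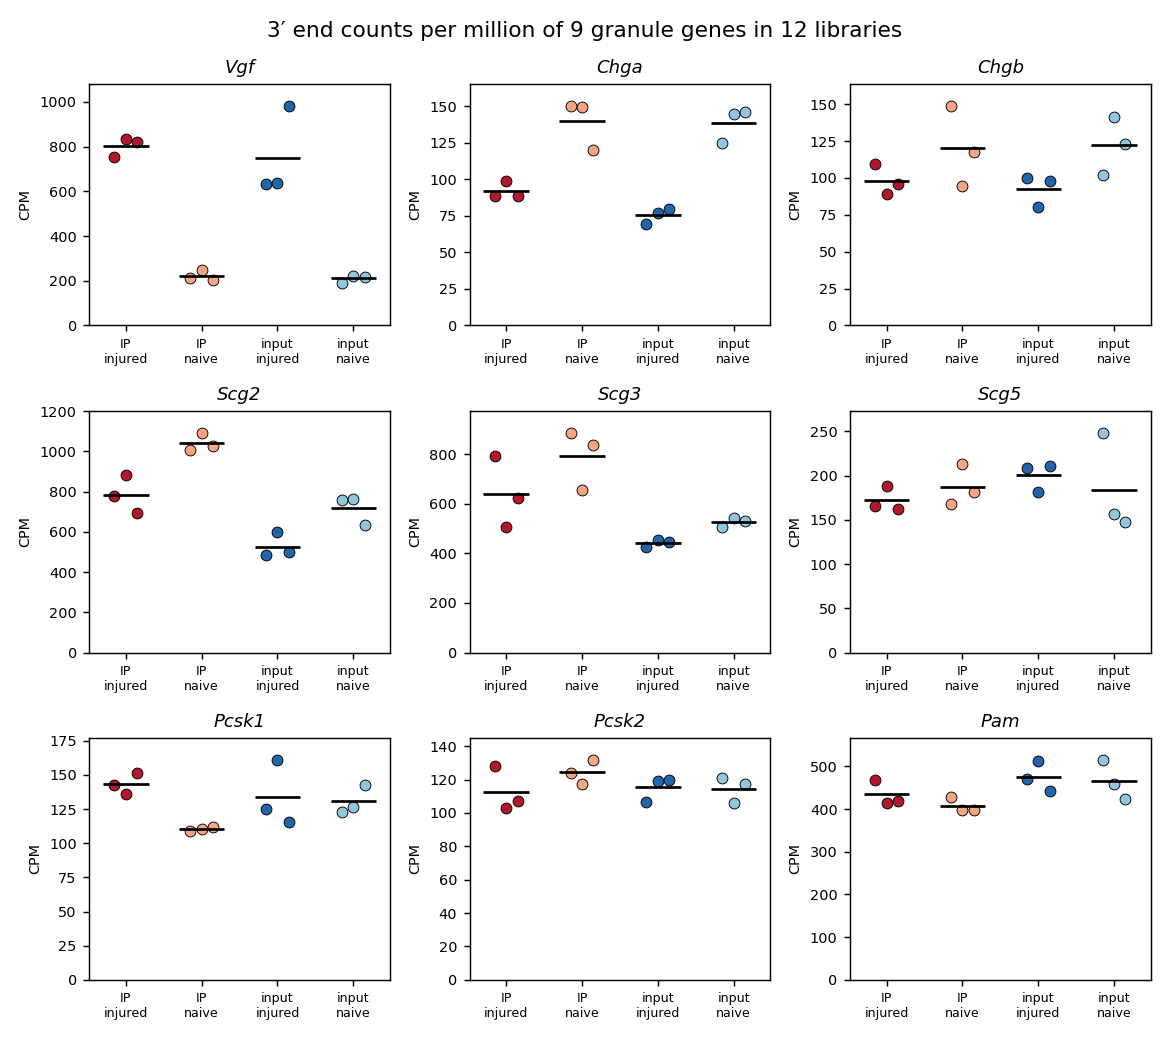
Normalised 3′ end counts (CPM, linear axis from 0) of the 9 measured genes, 1 panel per gene; points are single libraries and bars the mean of the 3 libraries of a group. Vgf averaged 802.4 ± 43.66 CPM in IP injured and 222.1 CPM in IP naive libraries, while most other genes differed by far less between the groups.

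Chga, the gene of chromogranin A, a driver of granule formation in endocrine cells, was lower after injury. Its input libraries had 69.68, 77.04 and 79.46 CPM when injured and 125.1, 144.73 and 146.24 CPM when naive. Its IP libraries had 88.36, 99.08 and 88.79 CPM when injured and 150.54, 149.89 and 120.19 CPM when naive. The groups did not overlap in either fraction. Chga fell in input by 0.88 ± 0.17 on the log2 scale (adjusted p = 0.00863), a call that was not made without input injured 1 (adjusted p = 0.0529) or when only the 2 input groups were fitted (adjusted p = 0.0691). In IP the log2 value was -0.61 ± 0.17 (adjusted p = 0.0976), which DESeq2 called (-0.64, adjusted p = 0.0118). The difference between the 2 effects was 0.27 (95% interval -0.23 to 0.78), so the fractions are not shown to differ.

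Scg2, the gene of secretogranin II and precursor of the peptide secretoneurin, had 778.67, 881.56 and 692.23 CPM in IP injured libraries and 1004.54, 1091.93 and 1024.27 CPM in IP naive libraries. In input it had 486.12, 596.94 and 498.14 CPM in injured libraries and 758.65, 761.9 and 633.99 CPM in naive libraries. All injured libraries lay below all naive ones in both fractions. The log2 values, -0.41 ± 0.13 in IP (95% interval -0.67 to -0.14, adjusted p = 0.159) and -0.45 ± 0.13 in input (-0.71 to -0.18, adjusted p = 0.120), did not pass the threshold of edgeR, while DESeq2 called both (adjusted p = 0.0257 and 0.0342). With the replicate number as a block in the edgeR fit, both were called as well (log2 -0.41 and -0.45, adjusted p = 0.0401 and 0.0267). Both sides came from the same animals, but the labels do not say that equal numbers mark the same pool.

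Chgb, the gene of chromogranin B, had 109.15, 89.17 and 96.12 CPM in IP injured and 149.07, 94.55 and 117.62 CPM in IP naive libraries, which overlap. In input it had 100.32, 80.18 and 97.62 CPM in injured and 102.2, 141.66 and 123.05 CPM in naive libraries, which do not. Neither difference passed the threshold (log2 -0.30 ± 0.20 and -0.40 ± 0.20, adjusted p = 0.716 and 0.489). Scg3, whose product ties chromogranin A to the granule membrane, gave -0.31 ± 0.15 in IP and -0.25 ± 0.15 in input (adjusted p = 0.4999 and 0.611). Scg5, the chaperone of the convertase that Pcsk2 encodes, gave -0.12 ± 0.19 and 0.12 ± 0.19 (adjusted p = 0.942 and 0.918).

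Among the convertases, Pcsk1 had 142.3, 136.2 and 151.12 CPM in IP injured libraries, against 109.21, 110.79 and 111.96 CPM in IP naive libraries. These groups do not overlap, but the log2 value of 0.37 ± 0.17 was not past the threshold (adjusted p = 0.429). In input its groups overlapped (125.43, 161 and 115.68 CPM in injured, 123.21, 126.8 and 142.56 CPM in naive libraries, log2 0.03 ± 0.17). Pcsk2, the second convertase of neuropeptide precursors, gave -0.14 ± 0.17 in IP and 0.01 ± 0.17 in input. Pam, the amidating enzyme, ranged from 414.48 to 468.87 CPM in IP injured, 397.01 to 427.47 in IP naive, 442.87 to 512.43 in input injured and 423.33 to 514.93 in input naive libraries. Its log2 values were 0.09 ± 0.13 (95% interval -0.17 to 0.35) in IP and 0.03 ± 0.13 (-0.23 to 0.29) in input. The 3 members with a full cAMP element, Scg2, Chgb and Pcsk1, had log2 values of -0.41, -0.30 and 0.37 in IP, none past the edgeR threshold. A part of the element in these values was not tested, and Vgf was not searched for it.

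**Figure D2:**
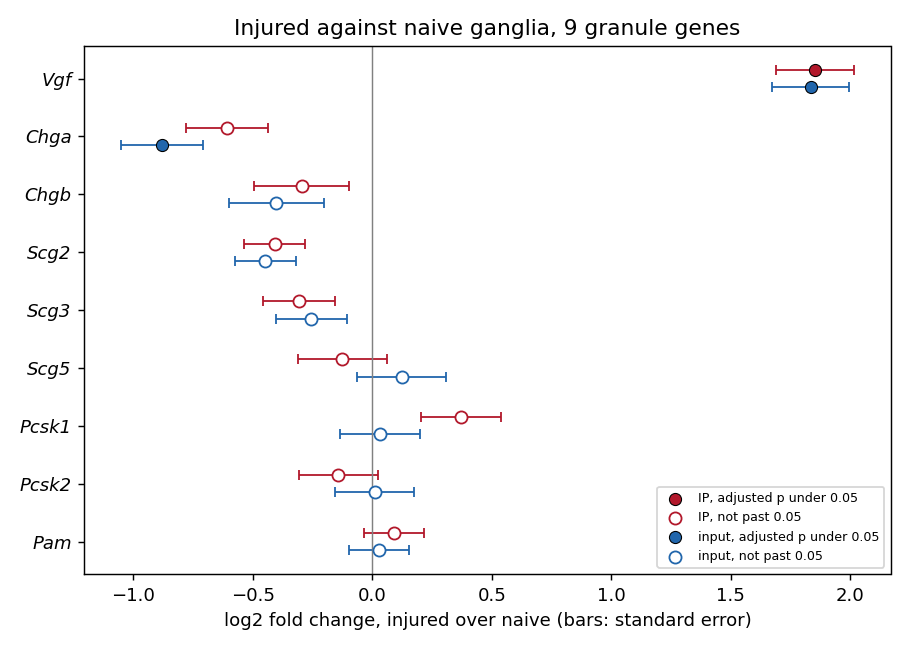
Log2 fold change of injured over naive ganglia for the 9 genes, in IP (red) and input (blue), with standard errors; filled points passed an adjusted p of 0.05. Vgf lies at 1.85 and 1.83, Chga at -0.61 and -0.88, and the other genes between -0.45 and 0.37.

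Counted without a test, groups that did not overlap placed 2 members above (Vgf, Pcsk1) and 2 below (Chga, Scg2) in IP, where 11% and 7.87% of all genes did so. In input 1 member lay above (Vgf) and 4 below (Chga, Chgb, Scg2, Scg3), where the background was 7.82% and 7.2%. Within the summed counts of the 9 genes, Vgf took 24.5 ± 2.2% (SD, n = 3) in IP injured libraries against 7.07 ± 0.83% in IP naive libraries, and 26.5 ± 5.5% in input injured against 8.08 ± 0.90% in input naive libraries. Scg2 took 23.9 ± 2.8% in IP injured against 33.1 ± 2.2% in IP naive libraries. The summed CPM of all 9 genes was 3280 ± 134.2 in IP injured and 3145 ± 78.97 in IP naive libraries, and 2478 ± 174.3 against 2923 ± 93.67 once Vgf was left out. The 3 enzyme genes summed to 690.1 ± 44.34 CPM in IP injured and 642.3 ± 17.68 CPM in IP naive libraries. In input the 9 genes summed to 2811 ± 185.2 CPM in injured and 2611 ± 113.7 CPM in naive libraries. Without Vgf the input sums were 2061 ± 104.2 CPM in injured and 2400 ± 123.3 CPM in naive libraries. The 3 enzyme genes summed to 724.3 ± 60.33 CPM in input injured and 711.3 ± 41.39 CPM in input naive libraries.

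**Figure D3:**
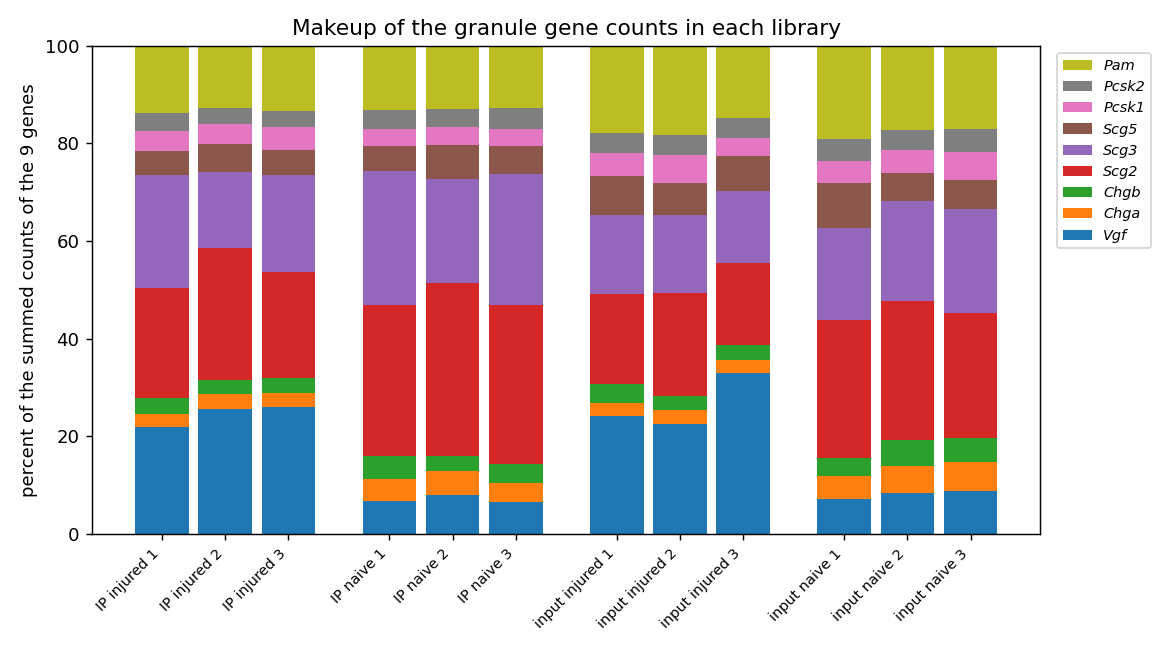
Share of each gene in the summed counts of the 9 genes, in percent, with 1 stacked bar per library. Vgf takes between 22.0% and 32.9% of the injured bars and between 6.57% and 8.79% of the naive bars, and the shares of Scg2 and Chga are smaller in injured than in naive bars of the same fraction.

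By a fixed rule, the 3 genes most like Vgf were those with the highest Pearson correlation of log2 CPM over the 12 libraries. They were S100a10 (r = 0.986), a partner of annexin A2, Camk1 (r = 0.983), a calcium and calmodulin dependent kinase, and Plin2 (r = 0.978), a coat protein of lipid droplets. The points share their libraries and depths, and the injured and naive libraries of Vgf form separate clusters. Plin2 had 200.81, 233.86 and 191.44 CPM in IP injured, against 47.6, 42.82 and 45.5 CPM in IP naive libraries (log2 2.20, adjusted p = 1.29e-07).

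Granule cargo and machinery were read from lists chosen with earlier results of these data in view. Of 22 peptide genes listed 15 were tested, and in IP 4 were called higher (Gal, Npy, Nts, Grp) and 1 lower (Nmb). In input 3 were higher (Gal, Npy, Nts) and 1 lower (Nmb). The median of the 15 was -0.03 in IP and -0.15 in input. Gal, the gene of galanin, had 984.13, 1025.92 and 1268.31 CPM in IP injured and 27.4, 54.62 and 22.05 CPM in IP naive libraries (log2 4.99 ± 0.30, adjusted p = 3.40e-09). Npy, the gene of neuropeptide Y, rose by 5.39 ± 0.62 (adjusted p = 1.57e-05), and Nts, of neurotensin, by 3.15 ± 0.37 (adjusted p = 1.96e-05), but Nts was not called with the sites at annotated 3′ ends alone (adjusted p = 0.146). Nmb, of neuromedin B, fell by 0.57 ± 0.12 in IP (adjusted p = 0.0145), which was not called without IP injured 1 or 3 (adjusted p = 0.0609 and 0.0773). In input it fell by 0.61 ± 0.12 (adjusted p = 0.00899), not called without input injured 1 or input naive 2 (adjusted p = 0.0571 and 0.0549). Grp, of gastrin releasing peptide, had 6.77, 2.07 and 7.63 CPM in IP injured and 0.08, 0 and 0 CPM in IP naive libraries, and its call was lost without any 1 of the 6 IP libraries except IP injured 2, and also without input injured 1 or 2 (highest adjusted p = 0.132). It was lost too with sites at annotated 3′ ends alone (adjusted p = 0.0640).

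None of the 14 granule biogenesis and release genes tested, the 12 other processing enzymes, the 7 peptide-degrading peptidases or the 15 subunits of the vacuolar proton pump, which acidifies the granule, passed the edgeR threshold between injured and naive ganglia in either fraction. At an unadjusted p under 0.05 there were 3, 1, 0 and 0 of them in IP and 3, 1, 0 and 1 in input, where 1181 and 1246 of all 11387 genes were. DESeq2 called Syt7 in both fractions and Atp6v0b in input. Syt7, a calcium sensor of slow granule release, had 519.75, 420.04 and 465.81 CPM in IP injured against 774.75, 553.21 and 690.15 CPM in IP naive libraries, which do not overlap. The median log2 values of the 4 lists in IP were -0.18, 0.14, 0.09 and -0.05.

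The second comparison was between IP and input, that is, between RNA on ribosomes of the Cre-marked neurons and all RNA of the ganglion. Scg2 and Scg3 were higher in IP than in input, in injured and in naive ganglia, while the other 7 members were not called. Of the 11387 genes, 1.91% were called higher and 4.02% lower in IP in injured ganglia, and 1.96% and 5% in naive ganglia. Scg2 was higher by 0.57 ± 0.13 on the log2 scale in injured ganglia (adjusted p = 0.00882) and by 0.53 ± 0.13 in naive ganglia (adjusted p = 0.0131). The injured call was lost without IP injured 2 (adjusted p = 0.0547) or input injured 1 (0.0510), and the naive call without input naive 3 (0.0565). Scg3 had 793.08, 505.83 and 624.7 CPM in IP injured against 424.86, 452.6 and 445.54 CPM in input injured libraries. It had 885.89, 656.86 and 834.82 CPM in IP naive against 507.12, 541.68 and 528.66 CPM in input naive libraries. All IP libraries lay above all input libraries of the same condition. So did those of Scg2 in both conditions and of Chga in injured ganglia, which makes 3 members above and 0 below in injured ganglia (13% and 14.4% of all genes). In naive ganglia 2 lay above and 1, Pcsk1, below (10.8% and 13.9%). The log2 values were 0.54 ± 0.15 in injured (adjusted p = 0.0374) and 0.59 ± 0.15 in naive ganglia (adjusted p = 0.0201). The injured call was also lost with RLE size factors, with library totals alone, with only the 2 groups fitted and with sites at annotated 3′ ends alone (adjusted p = 0.0591, 0.0832, 0.0837 and 0.0712). It was lost without any 1 of 9 libraries, all but IP injured 2, IP naive 1 and IP naive 2 (highest adjusted p = 0.333, without IP injured 1), and the naive call without IP naive 1 or 3 or any 1 of the 3 input naive libraries (highest adjusted p = 0.110).

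These levels depend on the scale. Where library sizes were set over all sites instead of gene sums, an alternative added after seeing the data, every IP over input value was higher by 0.39 on the log2 scale in injured and by 0.31 in naive ganglia, and the values of injured over naive moved by -0.05 in IP and -0.12 in input, where Scg2 was then called lower after injury (-0.57, adjusted p = 0.0290). For IP over input in injured and naive ganglia, Scg2 on that scale gave 0.96 and 0.85, Scg3 0.94 and 0.91, and Chga (0.67, adjusted p = 0.00997) and Vgf (0.49, adjusted p = 0.0267) were also called in injured ganglia. The 3 members below 0 in injured ganglia (Scg5, Pcsk2, Pam) and the 3 in naive ganglia (Chgb, Pcsk1, Pam) were above 0 on it, so no direction is given for them. Over all genes the calls were 218 higher and 458 lower in injured ganglia by gene sums, and 1952 and 369 on the other scale; in naive ganglia they were 223 and 569, against 1254 and 467. Between injured and naive input they were 102 and 32 by gene sums, against 82 and 74.

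**Figure D4:**
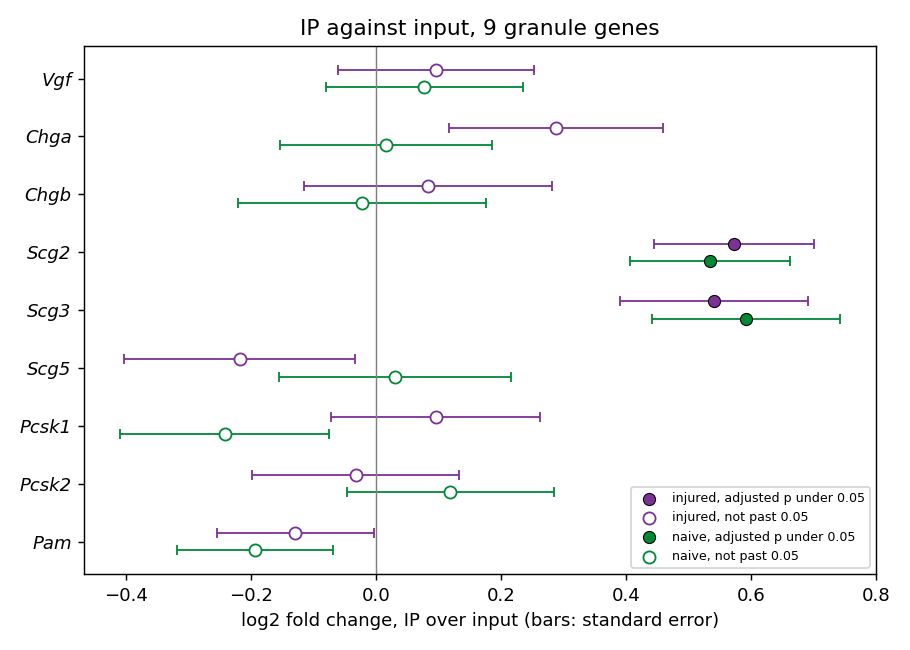
Log2 fold change of IP over input for the 9 genes, in injured (purple) and naive (green) ganglia, with standard errors; filled points passed an adjusted p of 0.05 on the scale of gene sums. Scg2 and Scg3 lie between 0.53 and 0.59, and the other genes between -0.24 and 0.29.

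Of the lists, the granule genes Rab27b, a small GTPase of granule release, and Syt7 were higher in IP. Rab27b gave 1.08 ± 0.27 in injured (adjusted p = 0.0196) and 1.29 ± 0.27 in naive ganglia (adjusted p = 0.00514), and Syt7 0.82 ± 0.14 (adjusted p = 0.00125) and 0.77 ± 0.14 (adjusted p = 0.00179). The injured call of Rab27b was lost without IP injured 1 or input injured 3 (adjusted p = 0.142 and 0.0864), and with sites at annotated 3′ ends alone (0.0724). Of the pump, Atp6v1b2 (0.63 ± 0.12 and 0.73 ± 0.12) and Atp6v1e1 (0.53 ± 0.13 and 0.56 ± 0.13) were higher in both, the second not without IP injured 1, IP injured 3 or input injured 2 in injured, nor without IP naive 3 in naive ganglia (highest adjusted p = 0.132 and 0.0565). Atp6v0e was lower in injured ganglia (-0.87 ± 0.26, adjusted p = 0.0484), a call lost without any 1 of the 6 injured libraries (highest adjusted p = 0.211), on the scale of all sites (0.171), with all tied sites (0.0634) and with sites at annotated 3′ ends alone (0.0508). Of the 15 pump subunits, DESeq2 called 5 in naive ganglia: Atp6v0b, Atp6v1b2, Atp6v1e1, Atp6v1g1 and Atp6v1g2. In injured ganglia it called 3: Atp6v0e, Atp6v1b2 and Atp6v1e1. Over all genes it called 1267 in naive and 1044 in injured ganglia. By edgeR, 8 and 6 subunits had an unadjusted p under 0.05 in naive and injured ganglia. Ctsh, a lysosomal protease that also trims peptides, was lower in IP in naive ganglia (-4.26 ± 0.92, adjusted p = 0.00624). Its counts were low, with 0, 1.55 and 0.88 CPM in IP naive and 7.14, 16.64 and 22.4 CPM in input naive libraries. In injured ganglia it gave -2.49 ± 0.82, not called by edgeR (adjusted p = 0.0832) but called by DESeq2. On the scale of gene sums, edgeR called no peptide gene and no peptidase between IP and input. At an unadjusted p under 0.05 there were 1 and 3 in injured and 2 and 3 in naive ganglia. Over all 11387 genes there were 2137 and 2323. Calls of peptide and peptidase genes on the scale of all sites, where IP over input values were higher, are not reported here. DESeq2 called no peptide gene and 1 peptidase, Ece1, in injured ganglia. It called neither kind in naive ganglia.

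The last question was whether injury changed which 3′ end these genes use. Each of 6 members had a single kept site. Tested as single sites, Vgf was called in IP after injury and Vgf and Chga in input, which makes 1 and 2 member sites, where 0.27% and 0.195% of 46229 sites were called. Between IP and input the sites of Scg2, Chga and the main site of Scg3 were called in injured ganglia (5% of all sites) and those of Scg2 and Scg3 in naive ganglia (4.27%), on the scale of all sites. With 1 library left out, 1 of these sites stayed called in injured ganglia without IP injured 1, IP injured 3, input injured 1 or input injured 2, and 1 in naive ganglia without IP naive 1, IP naive 3 or any input naive library. The Chga call in input was lost without input injured 1, 2 or 3 and without input naive 1, 2 or 3. Pcsk1 was read 2377 bp inside its annotated 3′ end (chromosome 13, 75132459 to 75132484) and Scg2 378 bp inside (chromosome 1, 79434744 to 79434774). Pcsk2 had a site 2273 bp inside its end with 72.0% of its counts (chromosome 2, 143813986 to 143814011) and 1 at 22 bp inside with 24.3% (143816237 to 143816262). The upstream site took 70.5 ± 10.2% of Pcsk2 counts in IP injured against 65.8 ± 6.3% in IP naive libraries, and 79.8 ± 10.2% in input injured against 73.7 ± 5.6% in input naive libraries (SD, n = 3). Input injured 3 stood out with 91.36%, beside 72.32% and 75.59% in its group. Scg3 was read mainly 13 bp inside its end (86.2% of counts) and also 48 bp past it (10.6%), and Scg5 59 bp (84.4%) and 252 bp (15.6%) inside. The test of site use gave no call for these 3 genes in any of the 4 comparisons (unadjusted p between 0.266 and 0.844), where 0% of 5303 genes were called by injury in either fraction, 0.0377% between IP and input in injured and 0.245% in naive ganglia.

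**Figure D5:**
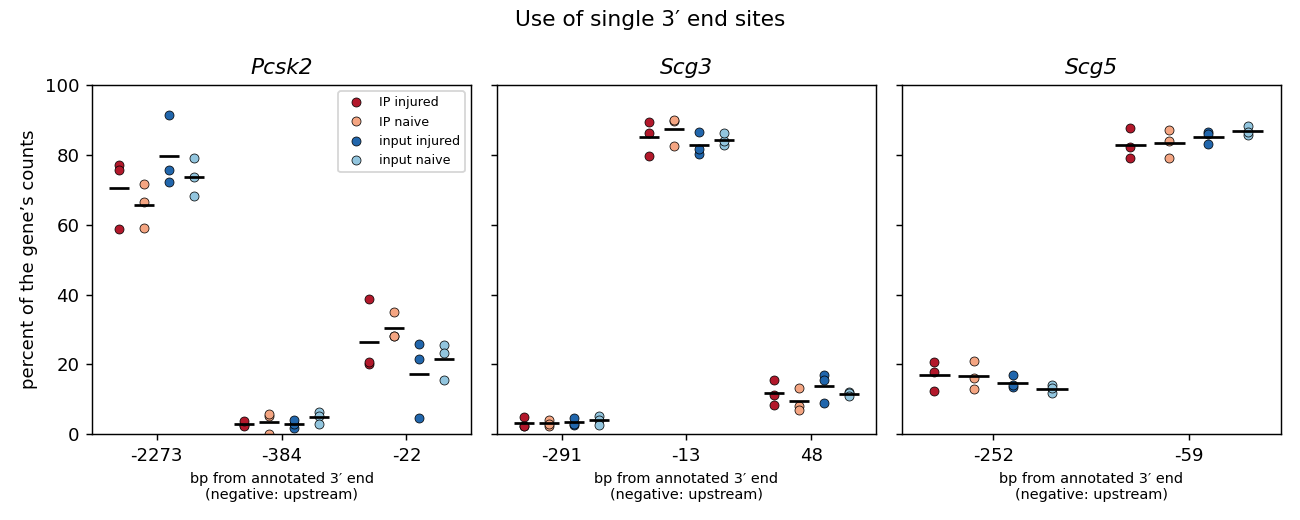
Share of each 3′ end site in the counts of Pcsk2, Scg3 and Scg5, in percent, by distance from the annotated 3′ end; points are libraries and bars group means. In all 4 groups the same site holds the highest mean share of each gene.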

How the data were processed

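The deposited table gives raw counts of RNA 3′ ends per genomic interval (site) for 12 QuantSeq REV libraries. Per the submitters' processing notes, the tools were HTSeq, STAR and bcl2fastq 2.17 and the builds mm10 and GRCm38, with no role for each. How sites were called is not given in the sources used here, nor whether positions count from 0 or 1. Of 178451 lines, 20 damaged ones were left out, and 17 unnamed columns were not used. The first block of sites was taken as the minus strand and the second as plus. Sites were tied to single genes of RefSeq GRCm38.p6 on the same strand, up to 200 bp past the 3′ end, and those outside repeats or within 100 bp of the 3′ end were summed per gene, which held 72.7% of the counts. The strand came from the RefSeq promoter table (27025 of 34614 genes) or from the counts at a gene's ends (at least 60 and 10 times those of the other end, 2138 genes, Vgf among them). Both readings were equal in 99.8% of the 8236 genes that had both. Cpe had neither.

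edgeR 4.0.16 (R 4.3.3) served to test gene sums (11387), sites (46229) and site use (diffSpliceDGE, 5303 genes): filterByExpr, TMM, 1 mean per group over all 12 libraries, quasi-likelihood, two-sided, Benjamini-Hochberg over all units, threshold 0.05. The alternatives included DESeq2 1.42.0, other scalings, filters and site choices, a replicate block and each library left out. The edgeR tests of genes, sites and site use were first run on simulated counts with changes set in IP injured libraries alone. Libraries were drawn as independent, only injured against naive in IP was scored, and the outcome is not given here. Errors are standard errors of log2 values, or SD over libraries. Each library is a pool of 4 mice. Injured and naive ganglia came from the same animals, and input is RNA of the ganglion before precipitation, so the groups share mice. The labels do not say that equal replicate numbers mark the same pool, so the fit of the report treats the 12 libraries as independent. The text names all members, the called genes of each list, and the 3 genes most correlated with a member called in IP. Members and lists were chosen with earlier results of these data known.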

Additional observations from a re-analysis of the deposited data

How the results depend on the processing

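Vgf was called higher after injury in IP and in input under all 22 alternatives run for each. The interaction called no gene by edgeR, with 383 genes at an unadjusted p under 0.05, against 14 genes by DESeq2. DESeq2 called 350 genes by injury in IP and 288 in input, where edgeR called 174 and 134, and 1044 and 1267 between IP and input in injured and naive ganglia, where edgeR called 676 and 792. It called 3 members and 3 member sites in IP, where edgeR called 1 of each. With all tied sites summed, 1200 and 1226 genes were called between IP and input in injured and naive ganglia, and on the scale of all sites 2321 and 1721, with 4 members in injured ganglia. Sites at annotated 3′ ends alone, which leave fewer genes and give no value for Scg2 and Pcsk1, gave 108 genes in IP after injury, 433 and 497 between IP and input, and 0 and 1 members there. The members called in injured IP against input were 1 with RLE size factors (DESeq2's), with library totals alone and with only the compared groups. Fitting only the compared groups gave 77 genes and 1 member by injury in input, and no value for the interaction.

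With 1 library left out, genes called ranged from 103 to 200 by injury in IP, 104 to 145 in input, 341 to 752 and 497 to 884 between IP and input in injured and naive ganglia, and 0 to 2 for the interaction. Members called ranged from 1 to 1, 1 to 2, 0 to 2 and 0 to 2 in the first 4, member sites from 1 to 1, 1 to 2, 1 to 3 and 1 to 2, and members with changed site use stayed at 0. With the replicate number as a block, 2 members were called in IP and 203 genes in input, and Scg2 was called in both (log2 -0.41 and -0.45, adjusted p = 0.0401 and 0.0267). Deviations of log2 CPM from the group means were correlated between injured and naive libraries. Same-numbered pairs gave 0.02 to 0.10 in IP and 0.03 to 0.08 in input, and other pairs -0.10 to 0.02 and -0.05 to 0.005. Deviations within a group sum to 0, so these values are not independent of each other. Each library was best with its own number, a hint from the data and not from the design. The cause of these differences was not tested. Members held between 505 and 13933 counts in a library.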
